A study of Rattus norvegicus with 12 samples.

Results

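RSC96 is an established rat Schwann cell line that arose by spontaneous transformation of cultured Schwann cells, and it is described here as it stood untreated and without other cells. The 3 libraries of untreated cells were taken by their sample labels, out of 12 libraries in 4 groups, and they are the samples that serve the study as its baseline. The labels name the source as rat Schwann cells, title the samples Rsc96 and describe them as HSC96, and mark them as untreated; they are taken here as the line RSC96. The libraries were made from polyadenylated RNA with a stranded kit. The line is 1 model of Schwann cells, and the labels do not say whether the libraries came from separate cultures, so the spread between them may be technical. All values below are for these libraries alone, and no other group enters them.

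Schwann cells are the glia of peripheral nerve. They arise from the neural crest under the transcription factor Sox10, follow axons through neuregulin signals received by the ErbB2 and ErbB3 receptors, and, around large axons, turn on Egr2 and the myelin genes. After nerve injury they switch to a repair state driven by c-Jun, in which they stop making myelin, secrete trophic factors and recruit macrophages. They also build a basal lamina of laminins, collagen IV, nidogens and perlecan, which they hold through integrins and dystroglycan.

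The libraries held 17491359, 19351476 and 18682148 counts. Levels are FPKM, that is counts per kilobase of gene and scaled to the total count of the library, as the authors deposited them, and each is given as mean ± SD over the 3 libraries (n = 3). A gene was called expressed at a mean of 1 FPKM or more. Of 30957 annotated genes, 11170 were expressed, which is 36.1%. At 10 FPKM or more were 6789 genes, or 21.9%, and at 100 FPKM or more were 788 genes, or 2.55%, which held 41.6% of all counts. The other end held 14995 genes with 0 counts in all 3 libraries. Annotated genes include small RNA genes such as U2 and U6, which libraries of polyadenylated RNA may miss. Of the 12167 genes matched below to a RefSeq promoter, 2846 had 0 counts and 2051 others were under 1 FPKM. The 36.1% over all annotated genes is thus a low mark for lists of named genes. Each list share below is to be read against this 36.1%, also where the figure is not repeated. A share near or somewhat above 36.1% does not set a list apart from other named genes. A count of 0 allows a level of up to 0.0540 CPM (counts scaled to the library total) over the group, which covers counting error only. The median coefficient of variation between libraries was 7.49% for genes of 1 to 10 FPKM, 3.79% for 10 to 100 FPKM and 3.03% for 100 FPKM or more. Below 1 FPKM it was 74.4%, so levels in that range are given with their counts.

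The most abundant messages came from the mitochondrial chromosome, whose 37 genes held 5.54%, 5.03% and 5.42% of the counts. Mt-co1, a subunit of cytochrome oxidase, led all genes with 13142, 12734 and 13143 FPKM. Mt-atp8, Mt-cox3, Mt-co2, Mt-nd2 and Mt-cytb, all of the respiratory chain and ATP synthase, followed at means between 4215 and 7998 FPKM. The exception in repeatability was Mt-atp6, a subunit of ATP synthase, with 6581, 1360.1 and 1461 FPKM. Library 1 was thus high for Mt-atp6 while libraries 2 and 3 lay close together. Its gene overlaps Mt-atp8 and abuts Mt-cox3, and the part of this overlap in the value was not tested. Mt-atp8 had 7888, 7407 and 8699 FPKM, and Mt-cox3 had 6988, 6834 and 7472 FPKM.

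Among nuclear genes, Anxa2 stood first with 3929, 3994 and 3612 FPKM. Annexin A2 is a calcium-dependent membrane protein, and its binding partner S100a10 was also among the 25 highest genes, at 1384 ± 46.0 FPKM. The translation genes Eef1a1, Rplp0, Rpsa, Rpl19 and Eef2 lay between 1284 and 3271 FPKM. Tpt1, the translationally controlled tumour protein, had 1351 ± 93.5 FPKM. The glycolytic enzymes Pgk1, Ldha and Aldoa reached 1776 ± 42.6, 1515 ± 20.9 and 1390.2 ± 23.4 FPKM. Hmga1, a chromatin protein common in dividing and transformed cells, had 2145, 2247 and 2664 FPKM. Lgals1, the secreted lectin galectin-1, had 1256, 1415 and 1669 FPKM. In both of these genes library 3 was the highest. Htra1, a secreted serine protease that cleaves matrix proteins, was the highest member of the matrix protease list, with 1403, 1428 and 1379 FPKM, and its 3 libraries lay close together. Actb had 1708 ± 95.9 FPKM, and the actin-like gene Potef had 2265 ± 37.4 FPKM, but such near copies share reads and their split is uncertain.

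Promoters were set beside these levels, since the genes of highest and lowest level could be compared by the letters before their starts. RefSeq promoters on the GRCr8 build, from 250 bases before to 50 after the gene start, were matched for 12167 genes. The sequences of a gene near the top of the list (Htra1), of the most abundant cytokine receptor (Il1rl1), and of 2 genes with 0 counts (Mag and Smarcb1) are shown because they span the range of CG content at both ends of the scale. Each is printed on its own strand, with every CG dinucleotide in capitals.
Htra1, chr1:194927819-194928118, plus strand: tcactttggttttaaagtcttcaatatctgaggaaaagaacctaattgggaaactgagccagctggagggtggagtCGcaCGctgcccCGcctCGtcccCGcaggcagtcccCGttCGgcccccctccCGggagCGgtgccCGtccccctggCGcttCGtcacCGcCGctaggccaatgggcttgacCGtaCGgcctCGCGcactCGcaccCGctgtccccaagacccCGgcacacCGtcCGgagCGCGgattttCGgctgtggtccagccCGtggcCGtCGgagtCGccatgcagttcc
Il1rl1, chr9:50203388-50203687, plus strand: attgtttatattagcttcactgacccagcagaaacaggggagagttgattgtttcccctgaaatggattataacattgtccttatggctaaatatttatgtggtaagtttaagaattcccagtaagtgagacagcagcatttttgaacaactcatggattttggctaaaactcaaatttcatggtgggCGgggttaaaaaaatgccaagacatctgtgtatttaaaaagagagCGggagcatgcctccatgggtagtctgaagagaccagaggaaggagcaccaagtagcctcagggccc
Mag, chr1:95290995-95291294, minus strand: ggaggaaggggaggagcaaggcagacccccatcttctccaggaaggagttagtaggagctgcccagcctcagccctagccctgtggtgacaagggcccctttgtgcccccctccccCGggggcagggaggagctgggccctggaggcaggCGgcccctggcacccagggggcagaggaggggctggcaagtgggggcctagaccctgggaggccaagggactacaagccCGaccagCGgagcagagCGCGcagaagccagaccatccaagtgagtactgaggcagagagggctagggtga
Smarcb1, chr20:12740698-12740997, plus strand: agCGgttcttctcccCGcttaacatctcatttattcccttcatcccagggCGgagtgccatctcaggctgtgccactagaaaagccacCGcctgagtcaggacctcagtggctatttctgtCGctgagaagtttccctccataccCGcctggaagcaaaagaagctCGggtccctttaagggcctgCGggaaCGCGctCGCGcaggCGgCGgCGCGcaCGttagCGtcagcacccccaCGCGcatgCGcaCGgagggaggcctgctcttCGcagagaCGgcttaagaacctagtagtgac

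The Htra1 promoter holds 30 CG dinucleotides, the Smarcb1 promoter 24, the Mag promoter 6 and the Il1rl1 promoter 2. Il1rl1 at 538 FPKM and Smarcb1 at 0 counts therefore stand against the trend over the 12167 genes with a matched promoter. In that trend the median was 6 CG dinucleotides in 2846 promoters of genes with 0 counts and 9 in 2051 promoters of genes under 1 FPKM. It was 20 in 2550 promoters of genes of 1 to 10 FPKM, 23 in 4232 of 10 to 100 FPKM and 24 in 488 of 100 FPKM or more, against 18 in all 12167. The step thus lay between genes under 1 FPKM and genes of 1 to 10 FPKM, with little difference among the 3 expressed classes. The motif TATAAA, searched on both strands, was in 17.9% of promoters of genes with 0 counts, 11.4% of those under 1 FPKM, 6.31%, 5.32% and 8.61% of the 3 expressed classes in rising order, and 9.62% of all. The motif GGGCGG, which contains a CG dinucleotide and so overlaps that count, was in 30.0% of promoters of genes with 0 counts and 73.4% of those of 100 FPKM or more, against 53.6% of all. CCAAT varied less, between 34.4% and 42.2% of a class, against 37.2% of all. These matches describe letters in the window and no binding. The classes are incomplete, since 2846 of 14995 genes with 0 counts and 488 of 788 genes of 100 FPKM or more had a matched promoter.

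**Figure D1:**
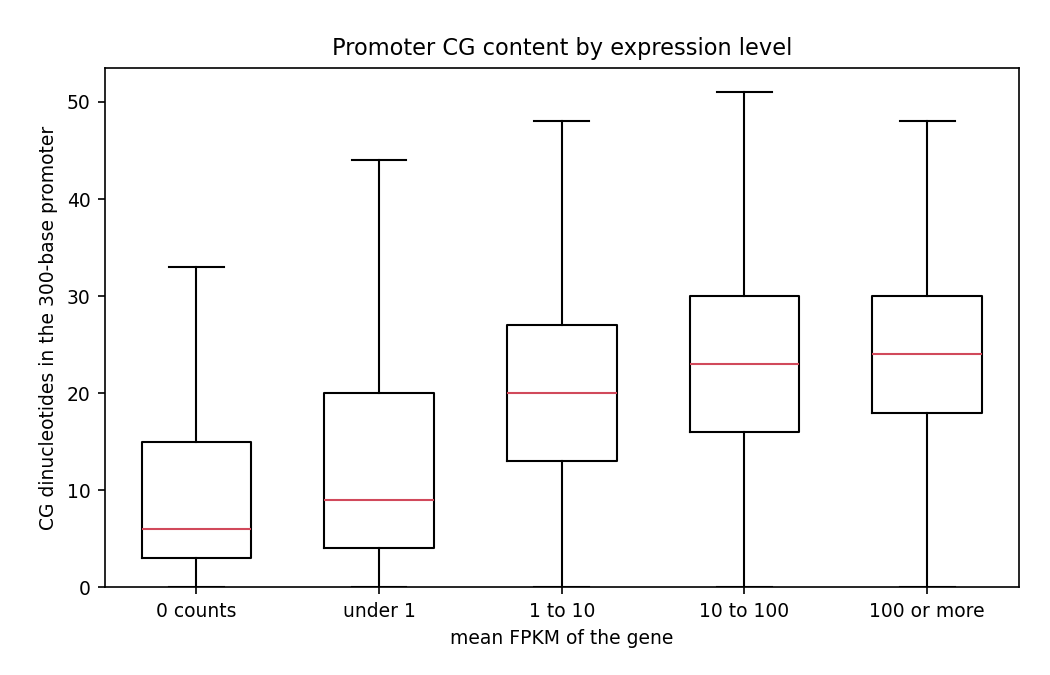
CG dinucleotides in the 300-base RefSeq promoter (vertical axis) for genes grouped by mean FPKM over the 3 libraries (horizontal axis). Boxes span the quartiles with the median as a red line, whiskers follow the usual box plot limits, and values beyond them are not drawn. The medians are 6, 9, 20, 23 and 24 from the lowest class to the highest.

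The Schwann label was checked against its markers, and several markers of the lineage had 0 counts or stayed at trace level while others were expressed. Sox10, the neural crest factor that Schwann cells keep for life, had 0 counts in all 3 libraries, and so did Sox9 and Sox5. S100b, the classical Schwann marker, had 4 counts in each library, at 0.146 ± 0.00754 FPKM. Ngfr, the low-affinity neurotrophin receptor of immature and repair Schwann cells, had 5, 6 and 13 counts, at 0.132 ± 0.0707 FPKM. Cdh19, Fabp7, Gap43 and Gas7 had 0 counts. In bulk RNA, a few cells with much of a message and many cells with little cannot be told apart. By the markers at 0 counts or trace level, the data go against a plain reading of the label. Other members of the Schwann lists were expressed, 11 of 28 identity genes and 21 of 30 transcription factors, as given in the next paragraphs. The cells are called the RSC96 line below.

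Of 28 matched Schwann identity genes, 11 were expressed, or 39.3%, against 36.1% of all annotated genes. Vim, the intermediate filament of mesenchymal and immature glial cells, was far above the rest with 936, 954 and 952 FPKM. The cell adhesion genes Ncam1, Cdh2, Cdh6 and Gpm6b followed at 18.5 ± 1.08, 12.7 ± 0.142, 12.1 ± 0.318 and 7.25 ± 0.620 FPKM. Cadm4, the adhesion molecule by which Schwann cells hold axons, had 6.72 ± 0.642 FPKM. The neuregulin receptors were low. Erbb2 had 3.28, 2.93 and 2.81 FPKM, Erbb3 had 1.38, 1.16 and 1.10 FPKM, and Erbb4 had 0 counts. Dhh, the hedgehog ligand of Schwann cells, had 3.15 ± 0.223 FPKM, and Gfap, the glial filament, had 1.08, 0.9997 and 1.12 FPKM, with library 2 just under the threshold.

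Of 30 matched Schwann transcription factors, 21 were expressed, beside 36.1% of all annotated genes. Its highest members are broad regulators that many cell types use. Id3, an inhibitor of basic helix-loop-helix factors, had 169.6 ± 7.28 FPKM. The Hippo pathway factors Tead1, Wwtr1 and Yap1, which Schwann cells need for myelination and which act in many other cells, had 68.0 ± 3.17, 51.4 ± 2.40 and 35.9 ± 1.49 FPKM. Nab1, a corepressor of Egr factors, and Id1 had 37.5 ± 0.912 and 37.5 ± 0.725 FPKM. Of the factors closer to the lineage, Jun had 28.7, 30.0 and 29.3 FPKM and Sox2, which keeps Schwann cells immature, had 14.8, 16.1 and 19.4 FPKM. Both were above 10 FPKM in every library. The neural crest factors Tfap2a and Pax3 had 15.7 ± 0.780 and 10.6 ± 0.239 FPKM, and Twist1 had 29.3 ± 4.63 FPKM. Egr2, the switch to myelination, had 2.00, 1.73 and 1.77 FPKM, and Pou3f2 had 0 counts. Of the neural crest and melanocyte list, 7 of 15 were expressed, while Kit, Tyr, Dct and Mlana had 0 counts.

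**Figure D2:**
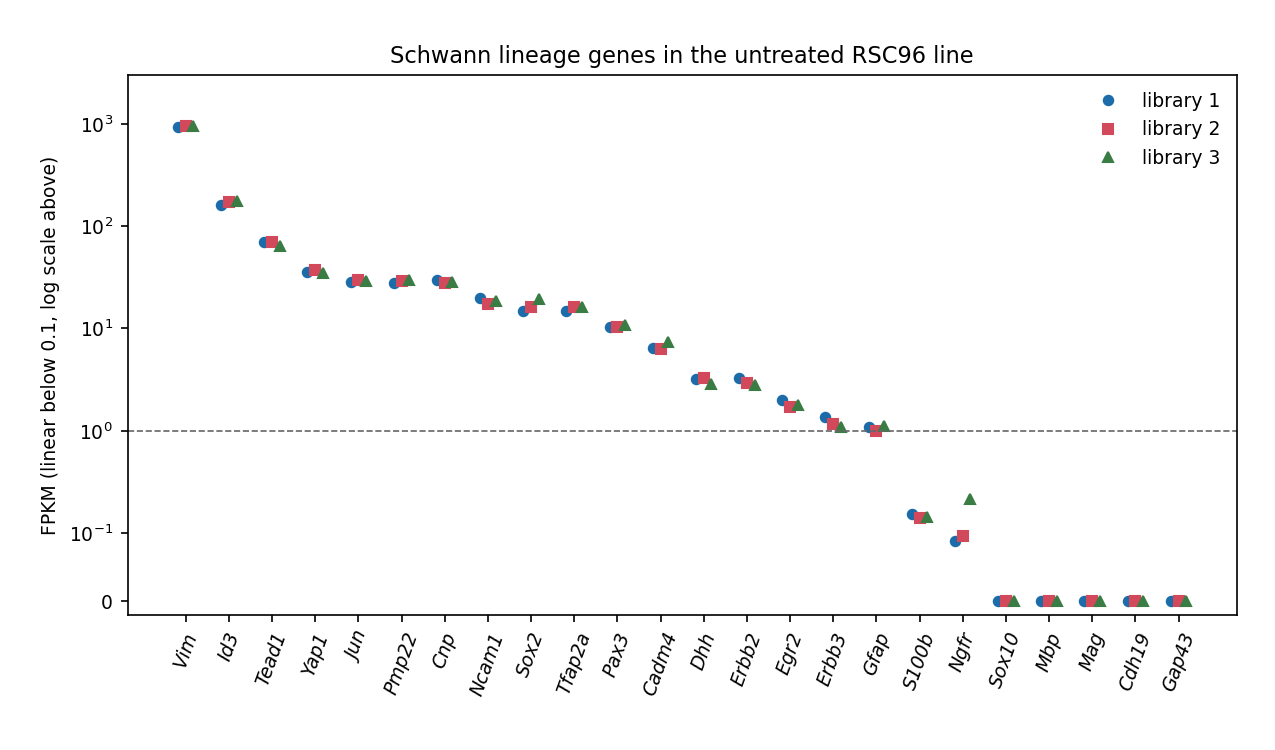
FPKM of Schwann lineage genes (vertical axis, linear below 0.1 and logarithmic above) in each of the 3 untreated RSC96 libraries, arranged nearly in order of the mean. The dashed line is 1 FPKM. Vim, Id3 and Tead1 lie above 50 FPKM in all libraries, whereas S100b and Ngfr lie under 1 FPKM and Sox10, Mbp, Mag, Cdh19 and Gap43 lie at 0.

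Of 32 myelin genes, 10 were expressed, or 31.2%, beside the 36.1% of all annotated genes, and 11 had 0 counts. Of the structural proteins of the sheath, Pmp22 had 27.7, 29.0 and 29.6 FPKM. The periaxin gene Prx, named after its value was seen, had 2.09 ± 0.155 FPKM. Mbp, Mag, Pmp2, Mobp, Ncmap and Ugt8 all had 0 counts. The list's highest members, Ndrg1 at 137 ± 0.872 FPKM, Litaf at 105 ± 0.711 FPKM and Mtmr2 at 51.9 ± 2.26 FPKM, are genes mutated in inherited neuropathy whose products work in trafficking and membrane lipid turnover in many cells. Cnp, an enzyme of myelinating glia that other cells also make, had 28.8 ± 1.01 FPKM.

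Of the repair list, 17 of 31 were expressed, or 54.8%, beside 36.1% of all annotated genes. Axl, a receptor kinase that binds the bridging ligand Gas6 on dying cells, led with 232, 235 and 226 FPKM. Ccl2, the chemokine that draws monocytes into injured nerve, had 119, 118 and 119.6 FPKM, with the libraries close together. Stat3, which maintains repair cells, had 76.1 ± 1.77 FPKM, Uchl1 had 78.2 ± 3.69 FPKM and Gdnf, a survival factor for motor neurons, had 16.7, 12.3 and 16.7 FPKM. Several genes that mark repair cells in nerve were missing: Shh, Olig1, Artn, Gap43 and Igfbp2 had 0 counts, and Il6 had 16 counts in all.

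Markers of other cell types were then counted, beside the 36.1% of all annotated genes that were expressed. Of 20 fibroblast and mesenchymal genes, 12 were expressed, or 60.0%, led by S100a4 at 563 ± 27.6 FPKM, Thy1 at 201 ± 4.02 FPKM, Loxl1 at 146 ± 3.66 FPKM, Twist1, Prrx1 at 16.1 ± 0.736 FPKM and Pdgfra at 14.5 ± 0.107 FPKM. Of the other members, Col1a2, Dcn, Lum, Postn, Fap, Tcf21 and Dpt had 0 counts, Col3a1 had 13 counts, and Col1a1 had 2.92 ± 0.102 FPKM. Of 25 epithelial genes, 8 were expressed, or 32.0%, with the desmosomal protein Pkp1 at 82.2 ± 1.46 FPKM and the hemidesmosomal integrin Itgb4 at 26.2 ± 0.461 FPKM, while Epcam, Krt5, Krt14, Krt18 and Krt19 had 0 counts. Of 22 macrophage genes, 2 were expressed, Itgax at 3.71 ± 0.214 FPKM and Cd14 at 2.63 ± 0.365 FPKM, and Ptprc, Aif1, Adgre1, Tyrobp and Mrc1 had 0 counts. None of 11 lymphocyte genes was expressed. Of 11 endothelial genes, 2 reached 1 FPKM, Egfl7 at 7.56 ± 0.308 FPKM and Flt1 at 6.40 ± 0.242 FPKM. With a threshold of 1 CPM in place of 1 FPKM, the endothelial count was 5 and the macrophage count 4. Of 20 neuronal genes, 5 did, namely Eno2 at 88.6 ± 1.92 FPKM, Uchl1, Nefh at 12.9 ± 0.490 FPKM, Map2 at 11.3 ± 0.774 FPKM and Isl1 at 4.17 ± 0.182 FPKM. Rbfox3, Syp, Nefl, Nefm, Prph and Stmn2 had 0 counts. Of 14 smooth muscle and pericyte genes 5 were expressed, of 13 central glial genes 5 and of 8 skeletal muscle genes 1, which was Des at 1.85 ± 0.188 FPKM.

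**Figure D3:**
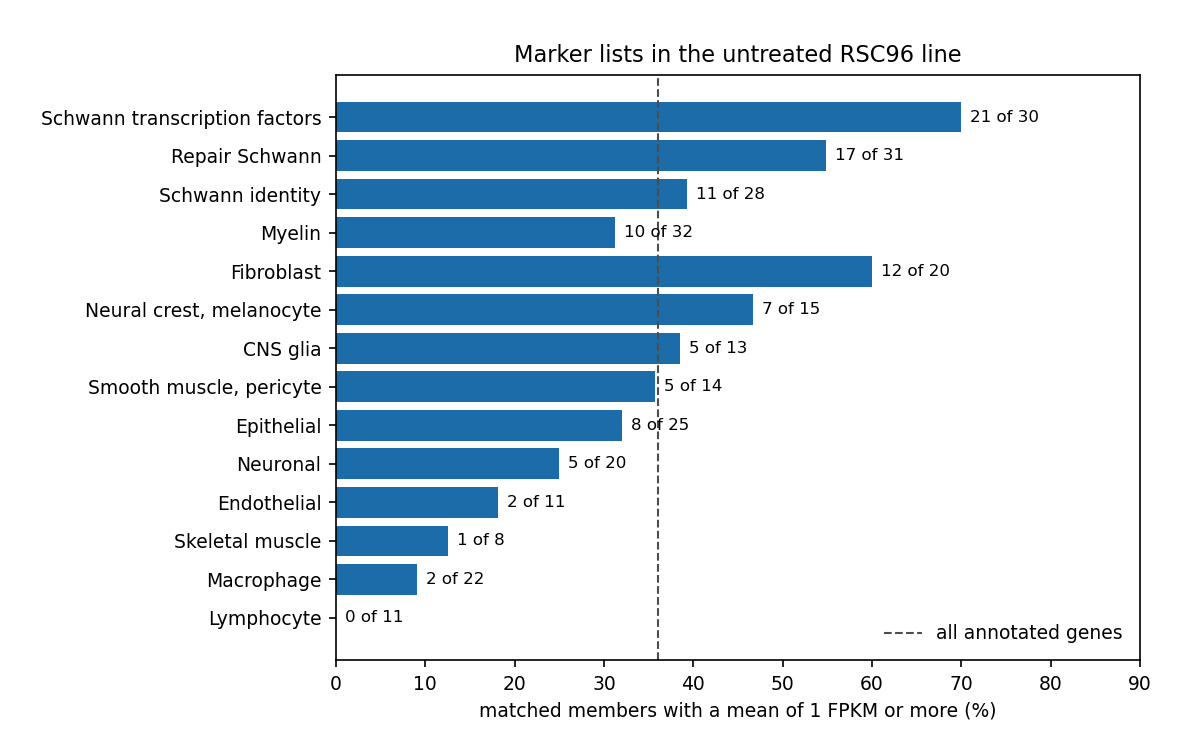
Share of matched members of each marker list with a mean of 1 FPKM or more in the untreated RSC96 line (horizontal axis, percent), with the counts beside the bars. The dashed line is the share over all annotated genes, 36.1%. The Schwann transcription factor, fibroblast, repair, neural crest, Schwann identity and central glial lists lie above it. The other lists, among them macrophage and lymphocyte, lie below it. The line counts small RNA genes too, so it is a low mark for lists of named genes.

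The S100, cadherin and intermediate filament families were counted next, beside the 36.1% of all annotated genes that were expressed. Of 15 matched S100 genes, 7 were expressed, and 4 of them were above 100 FPKM: S100a10, S100a11 at 682 ± 50.9 FPKM, S100a4 and S100a6 at 513 ± 36.4 FPKM. S100a13, S100a1 and S100a3 had 15.4 ± 1.47, 13.7 ± 1.92 and 1.13 ± 0.218 FPKM. S100b was one of 7 members with a count but under 1 FPKM, and the median of the family was 0.776 FPKM. Of 23 cadherins, 5 were expressed. Cdh3, the P-cadherin of basal epithelia, had 34.2, 36.0 and 35.2 FPKM and so stood above Cdh24 at 13.8 ± 1.09 FPKM and above the Schwann cadherins Cdh2 and Cdh6. Of 21 intermediate filament genes, 11 were expressed, with Lmna and Lmnb1 of the nuclear lamina at 135 ± 1.93 and 80.1 ± 2.84 FPKM, Krt7 at 5.34 ± 0.0827 FPKM and Krt8 at 1.26 ± 0.142 FPKM.

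Hox genes carry the position of a cell along the body axis. Of 33 matched, 11 were expressed, or 33.3%, beside 36.1% of all annotated genes. Hoxd13, of the most caudal and distal group, had 23.6, 24.6 and 26.9 FPKM, and Hoxb13 had 16.6, 18.2 and 17.8 FPKM. Hoxd8, Hoxd10, Hoxd11, Hoxd9, Hoxd4 and Hoxd3 followed at 12.1 ± 0.769, 8.63 ± 0.587, 5.90 ± 0.773, 4.64 ± 0.246, 3.51 ± 0.442 and 2.57 ± 0.409 FPKM. Of the 11 expressed genes, 7 belonged to the Hoxd cluster, whereas Hoxd12 and Hoxd1 had 0 counts. Of the other clusters, Hoxb6 at 2.29 ± 0.154 FPKM, Hoxb3 at 1.18 ± 0.0455 FPKM and Hoxc6 at 1.02 ± 0.129 FPKM passed 1 FPKM. The matched Hoxa genes, Hoxa2, Hoxa3, Hoxa6, Hoxa7, Hoxa9 and Hoxa13, had 0 counts, but the annotation carries some Hoxa genes in several rows, so reads of that cluster can be split.

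The receptor genes show to which signals the line carries a message for a receptor. Of 57 receptor tyrosine kinases, 22 were expressed, or 38.6%, close to the 36.1% of all annotated genes. After Axl came Epha2, a receptor for ephrin-A ligands, with 130.5, 133 and 129 FPKM, and Ryk, a Wnt co-receptor, with 98.3 ± 5.01 FPKM. Igf1r, the receptor for insulin-like growth factors, had 34.4, 32.6 and 28.7 FPKM. Met, the receptor for hepatocyte growth factor, had 31.5, 31.7 and 29.5 FPKM, and Ddr1, a collagen receptor, had 29.1 ± 3.13 FPKM. Several families were at trace level. Egfr had 2 counts over the 3 libraries. The fibroblast growth factor receptors Fgfr1, Fgfr2, Fgfr3 and Fgfr4 had 66, 1, 67 and 1 counts, which put Fgfr1 at 0.310 ± 0.0504 FPKM. Of the neurotrophin receptors, Ntrk3 had 1 count and Ntrk2 had 0. Ret, the signalling receptor for the GDNF family, had 0 counts, and its co-receptors Gfra1, Gfra2, Gfra3 and Gfra4 had 3, 0, 0 and 36 counts. Of the neurotrophic co-receptors, 4 of 13 were expressed, namely Ncam1, Sort1 at 13.8 ± 0.714 FPKM, Nradd at 8.93 ± 1.12 FPKM and Sorcs1 at 2.16 ± 0.409 FPKM.

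Of 44 cytokine receptors, 27 were expressed, or 61.4%, beside 36.1% of all annotated genes. Il1rl1, also called ST2, the receptor for interleukin-33, was the highest with 545, 519 and 550.4 FPKM. In every library it was above the next member, Tnfrsf12a, the receptor for TWEAK, which had 148 ± 3.67 FPKM. The values are per gene, so messages for membrane-bound and for soluble forms of a receptor, ST2 included, were not told apart. Tnfrsf1a, the main receptor for tumour necrosis factor, had 55.4 ± 1.31 FPKM, Il6st, the shared signal chain of the interleukin-6 family, had 48.2 ± 3.14 FPKM, and Ifngr1 and Il13ra1 had 40.4 ± 0.922 and 32.3 ± 0.349 FPKM. Lifr had 3 counts, and Csf3r, Cntfr, Cd40, Il7r, Csf2rb and Prlr had 0 counts. No chemokine receptor of 23 reached 1 FPKM. Cxcr4, Ackr3, Ccr2 and Cx3cr1 had 0 counts, and Ccrl2 had 40 counts, at 0.359 ± 0.129 FPKM.

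Of 14 receptors for TGF-beta and BMP ligands, 7 were expressed, beside 36.1% of all annotated genes. Bmpr1a, Bmpr2 and Tgfbr2 had 29.9 ± 0.856, 26.0 ± 1.18 and 21.1 ± 0.572 FPKM. Tgfbr1 stands on several rows of the table and was not used. Of 20 pattern recognition genes, 11 were expressed, with the adaptor Myd88 at 18.3 ± 1.09 FPKM and the flagellin receptor Tlr5 at 13.7 ± 0.425 FPKM, while Tlr7 had 0 counts. Of 41 G protein-coupled receptors, 10 were expressed, beside the same 36.1%. Among them F2r, a thrombin receptor, was the only one above 10 FPKM, at 42.0 ± 1.11 FPKM. Adgrg6, which Schwann cells need to start myelination, had 344 counts, at 0.908 ± 0.125 FPKM. Of 21 Notch, Wnt and hedgehog receptors, 14 were expressed, or 66.7%, led by the Wnt co-receptors Lrp5 at 33.7 ± 0.769 FPKM and Lrp6 at 27.7 ± 1.57 FPKM, Notch2 at 21.0 ± 1.57 FPKM and Fzd4 at 11.5 ± 0.332 FPKM. Of 22 guidance receptors, 10 were expressed, with the semaphorin receptors Nrp2 at 140.4, 143 and 139 FPKM and Plxnb2 at 94.2 ± 4.56 FPKM highest.

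Of 30 matrix receptors, 16 were expressed, or 53.3%. Itgb1, the beta chain that most laminin and collagen integrins share, had 534, 511 and 535 FPKM. Itga3, its partner for laminin, had 442, 446 and 429 FPKM, and Cd44, the hyaluronan receptor, had 376, 394 and 414 FPKM. The libraries of each gene lay close together, and the lowest of Itgb1 was above the highest of Itga3 and Cd44. Dag1, dystroglycan, had 104 ± 1.19 FPKM. Itga7, another laminin-binding chain, had 62.6 ± 2.03 FPKM, and Hmmr had 94.3 ± 5.22 FPKM. Itgb3, Itga9 and Itgal had 0 counts, and Itga4 had 1 count.

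Among the genes for secreted trophic factors, 8 of 19 neurotrophic factors were expressed, or 42.1%, beside 36.1% of all annotated genes. Mdk, midkine, a heparin-binding growth factor, had 241, 268 and 261 FPKM, and Manf, a protein of the endoplasmic reticulum that is also secreted, had 101 ± 7.54 FPKM. Clcf1, Lif and Bdnf had 10.1 ± 0.754, 7.94 ± 0.336 and 4.24 ± 0.114 FPKM. The remaining GDNF ligands Artn and Nrtn, the neurotrophin Ntf3 and Igf1 had 0 counts. Gdnf was thus the one GDNF ligand above 1 FPKM, since Pspn had 13 counts.

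Of 42 other growth factors, 22 were expressed, or 52.4%. Grn, progranulin, led with 311 ± 6.01 FPKM. Several ligands of the EGF receptor were expressed. Hbegf had 182, 179 and 184 FPKM, Tgfa had 75.1, 76.4 and 74.6 FPKM, and Areg had 14.7 ± 1.53 FPKM. The libraries of Hbegf and of Tgfa lay close together. Vegfa had 88.2, 69.7 and 93.3 FPKM, Csf3 had 63.9, 65.8 and 67.5 FPKM and Cyr61, a matrix-bound growth regulator, had 47.1 ± 1.10 FPKM. Hgf, Pdgfb, Fgf1, Fgf5, Fgf10, Nrg3 and Nrg4 had 0 counts, and Nrg1 had 252 counts, at 0.855 ± 0.0986 FPKM.

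Some chemokine genes were expressed strongly. Of 35, 9 were expressed, or 25.7%, beside 36.1% of all annotated genes. Cxcl1, which attracts neutrophils, had 233, 251 and 275 FPKM, Cxcl12 had 43.6 ± 0.436 FPKM, Cxcl10, an interferon-induced chemokine, had 34.0 ± 1.29 FPKM, Cxcl16 had 25.2 ± 0.807 FPKM and Cxcl3 had 9.98 ± 1.62 FPKM. The 19 with 0 counts included Ccl3, Ccl4, Ccl5, Cxcl9 and Cxcl13. Of 41 cytokines, 8 were expressed, or 19.5%. Spp1, osteopontin, which also counts as a matrix protein, had 319, 315 and 318 FPKM, and Il33, an alarmin kept in the nucleus, had 89.6, 88.3 and 93.7 FPKM. Il10, an anti-inflammatory cytokine mostly made by leukocytes, had 14.1, 15.4 and 16.1 FPKM. It repeated in all 3 libraries on 576 counts. Il24, Tnfsf12 and Il1rn had 8.06 ± 0.298, 8.81 ± 1.04 and 7.68 ± 0.238 FPKM, whereas Il1b, Il34, Il15 and Ifnb1 had 0 counts.

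Of 33 TGF-beta family ligands and their binding proteins, 14 were expressed, or 42.4%. Fstl1 and Ltbp1, which binds latent TGF-beta to the matrix, had 139 ± 1.37 and 137 ± 2.05 FPKM, and Tgfb1 had 43.9 ± 1.68 FPKM. Fst, Fstl3 and Bmp1 had 25.9 ± 0.218, 19.5 ± 1.27 and 15.7 ± 0.806 FPKM, while Bmp4, Bmp5, Bmp6 and Bmp7 had 0 counts. Of 36 guidance ligands, 19 were expressed, or 52.8%, and Sema3c at 167, 165 and 171 FPKM was far above Efnb2 at 21.1 ± 0.3003 FPKM, Rgmb at 17.8 ± 1.11 FPKM and Slit2 at 17.1 ± 0.628 FPKM. Of 35 Wnt, Notch and hedgehog ligands, 8 were expressed, or 22.9%, none of them above 10 FPKM, with Wnt7b, Wnt10b and Wnt5a at 7.29 ± 0.368, 5.42 ± 0.216 and 4.49 ± 0.368 FPKM. Of 18 complement and acute phase genes, 4 were expressed: B2m at 663 ± 45.7 FPKM, the complement proteases C1r at 201 ± 1.54 FPKM and C1s at 73.1 ± 2.02 FPKM, and Clu at 105 ± 0.466 FPKM. C1qa, C5 and the C1 inhibitor Serping1 had 0 counts.

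Ligands were set beside their receptors in 31 pairs, which were chosen after the levels were known. In 13 pairs both genes were expressed, in 15 the ligand alone and in 3 the receptor alone. Il33 and Il1rl1 were the pair with the highest receptor level, and Il1rap, the co-receptor that this pair needs, had 15.4 ± 0.703 FPKM (named after its value was seen). Spp1 and Cd44, and Sema3c and Nrp2, were the pairs in which both genes passed 100 FPKM. Pdgfa at 10.05 ± 0.295 FPKM stood beside Pdgfra, Dhh beside Ptch1 at 7.14 ± 0.152 FPKM, and Gas6 at 6.35 ± 0.440 FPKM beside Axl. The 15 pairs with the ligand alone included Hbegf, Tgfa and Areg with Egfr, Lif with Lifr, and Csf1 at 42.9 ± 0.380 FPKM with Csf1r, which had 187 counts, at 0.733 ± 0.0433 FPKM. In 6 of them the receptor had 0 counts: Gdnf with Ret, Bdnf with Ntrk2, Csf3 with Csf3r, Kitlg with Kit, Cxcl12 with Cxcr4 and Ccl2 with Ccr2. Kitlg, the ligand of Kit, had 40.6 ± 1.87 FPKM in this line. The 3 pairs with the receptor alone were Hgf and Met, Igf1 and Igf1r, and Nrg1 and Erbb3. Hgf and Igf1 had 0 counts, but Nrg1 was just under the threshold, with 252 counts and 0.855 FPKM. Erbb3 was just above it, with 398 counts and 1.21 FPKM. A message for both genes of a pair says nothing of protein or of signalling. Values per gene also do not separate membrane-bound from soluble forms of a receptor such as Il1rl1.

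**Figure D4:**
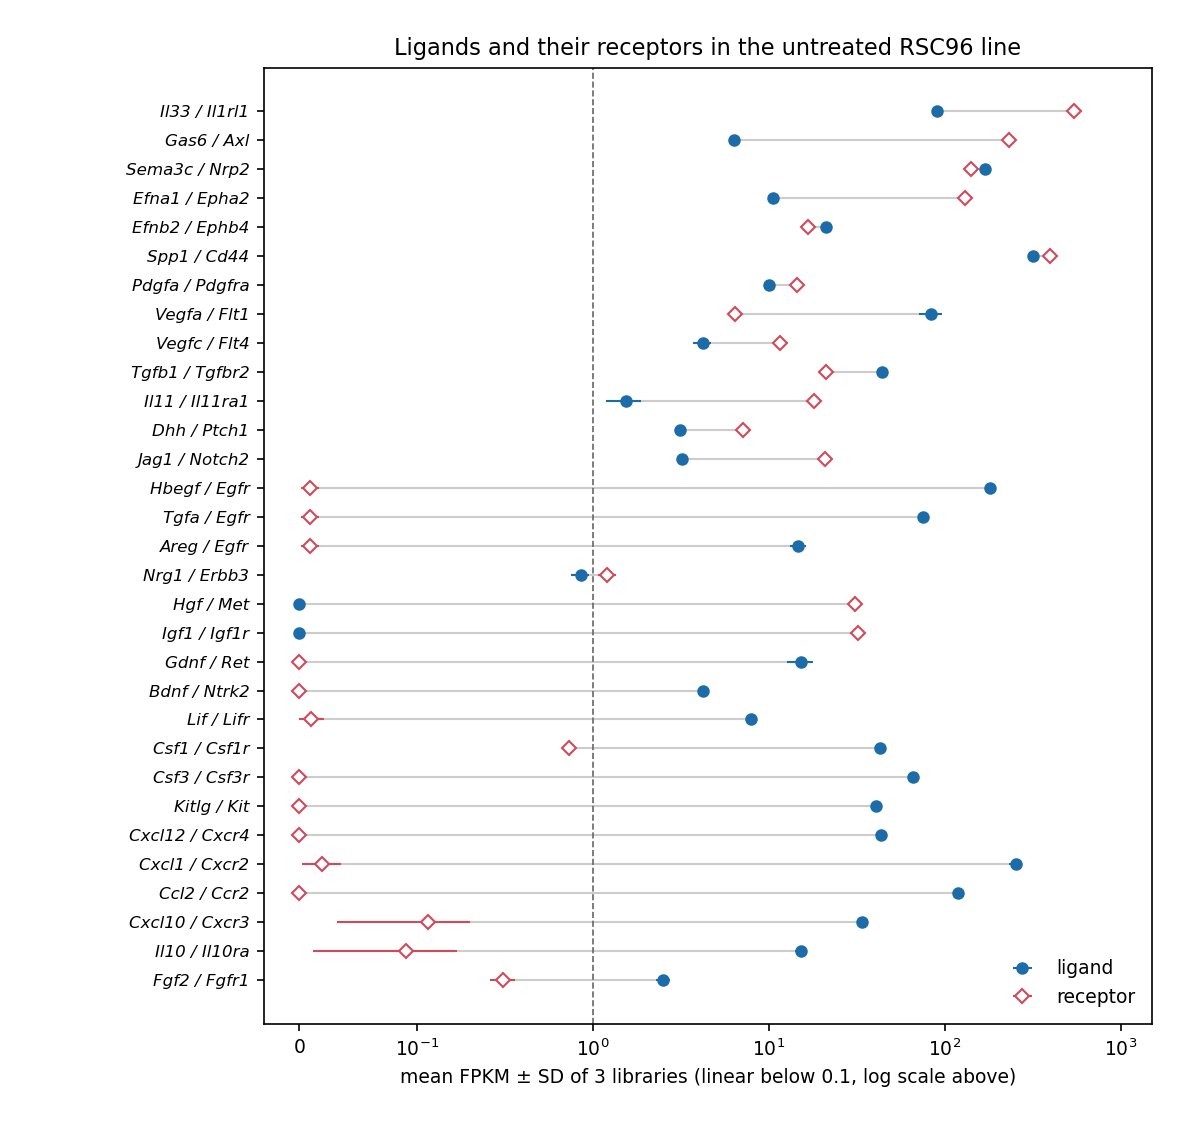
Mean FPKM of the ligand (filled circles) and receptor (open diamonds) in 31 pairs, with bars of 1 SD over the 3 untreated RSC96 libraries (horizontal axis, linear below 0.1 and logarithmic above). The dashed line is 1 FPKM. The upper 13 pairs have both symbols to the right of it, and the Egfr, Ret, Ntrk2, Csf3r, Kit, Cxcr4 and Ccr2 receptors lie at or near 0.

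Most laminin and nidogen genes were expressed, whereas the main chains of collagens I, III and IV were low or had 0 counts. Of 24 laminin and basement membrane genes, 14 were expressed, or 58.3%, beside 36.1% of all annotated genes. Sparc, a collagen-binding glycoprotein, had 117 ± 3.76 FPKM, and Nid2, the linker nidogen-2, had 69.4, 69.9 and 70.5 FPKM. Lamc1, the gamma chain of most laminins, had 70.3, 70.5 and 67.7 FPKM, and Lamb1 had 49.95, 51.7 and 49.0 FPKM. Hspg2, perlecan, had 47.0 ± 3.73 FPKM, and Lamb2 had 23.1 ± 1.52 FPKM. Of the alpha chains, Lama5 had 22.6, 23.1 and 20.6 FPKM, Lama3 had 12.3 ± 0.820 FPKM, and Lama4 had 3.66 ± 0.0649 FPKM, whereas Lama2, the chain of the Schwann cell basal lamina, had 4 counts and Lama1 had 0. Lamb3, a beta chain of epithelial basement membranes, had 2.84 ± 0.218 FPKM, and Lamc3 had 1 count.

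Of 41 collagens, 13 were expressed, or 31.7%, beside 36.1% of all annotated genes, and none reached 100 FPKM. Col5a2, of the minor fibrillar collagen V, had 65.5, 63.8 and 60.2 FPKM, and Col8a1, a short-chain network collagen, had 59.7, 60.8 and 58.1 FPKM. Col18a1, Col16a1, Col5a1 and Col11a1 had 33.1 ± 0.987, 22.2 ± 0.2567, 21.7 ± 0.890 and 20.6 ± 0.482 FPKM. The main chains of fibrils and basal laminae were not at these levels. Col1a1 had 2.92 ± 0.102 FPKM with Col1a2 at 0 counts, Col3a1 had 13 counts, at 0.0492 ± 0.00648 FPKM, and the collagen IV chains Col4a1 and Col4a2 had 0 counts and 1 count. The genes that modify and cross-link collagen were expressed all the same, 16 of 17, or 94.1%. P4hb and P4ha1, of the collagen prolyl hydroxylase, had 513 ± 13.7 and 269 ± 9.36 FPKM, the collagen chaperone Serpinh1 had 190.2 ± 4.90 FPKM, and Loxl1, Pcolce and Plod2 were also above 100 FPKM.

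Of 57 matrix glycoproteins and proteoglycans, 23 were expressed, or 40.4%, beside 36.1% of all annotated genes. After Spp1 came the thrombospondins Thbs1 with 288, 295 and 265 FPKM and Thbs2 with 235, 234 and 223 FPKM, the syndecans Sdc4 at 174 ± 8.95 FPKM and Sdc1 at 139 ± 0.361 FPKM, and Efemp2, which assembles elastic fibres, at 106 ± 1.26 FPKM. Fn1, fibronectin, named after its value was seen, had 52.8 ± 1.54 FPKM. Dcn, Lum, Postn, Eln, Vtn and Sdc3 had 0 counts. Of 47 proteases and inhibitors, 30 were expressed, or 63.8%. Htra1 was followed by the lysosomal cathepsins Ctsd, Ctsl and Ctsb at 658 ± 12.5, 649.5 ± 18.6 and 453 ± 4.02 FPKM. The metalloprotease inhibitor Timp1 had 568, 594 and 545 FPKM and Timp2 had 90.5 ± 1.42 FPKM, whereas Timp3 had 0 counts. Mmp2, the gelatinase common in stromal cells, had 1 count, and Mmp9 had 103 counts, at 0.470 ± 0.221 FPKM. Mmp13, Mmp14 and Mmp19, also named after their values were seen, had 57.6 ± 5.29, 55.9 ± 1.85 and 43.6 ± 1.53 FPKM.

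Of the 42 lists, growth control came second to the collagen-modifying genes in its share of expressed members. Of 35, 28 were expressed, or 80.0%. Ccnd1 and Cdk4, the cyclin and kinase that open the cell cycle, had 176, 164 and 177 FPKM and 141, 139.5 and 139.9 FPKM. The proliferation genes Mki67 and Top2a had 122 ± 5.57 and 98.4 ± 0.821 FPKM. Mdm2, a ubiquitin ligase, and Cdkn1a, a cell cycle inhibitor, had 122 ± 4.11 and 79.4 ± 0.886 FPKM. Cdkn2a and Cdkn2b, neighbouring inhibitors of the cell cycle, had 0 counts in all libraries. By gene start they lie in a run of 4 annotated genes at 0 counts, on chr5:107757403-107963084 of Rnor_6.0. The genes before and after this run were Mtap at 11.5 ± 0.171 FPKM and Dmrta1 with 6 counts. Mtap, at chr5:107711077-107777530, overlaps the start of the interval, and the run includes the small RNA gene SNORA17. Tert, Terc and Mycn also had 0 counts, although Terc is not polyadenylated and such libraries may miss it. Why Cdkn2a and Cdkn2b had 0 counts was not tested.

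The other growth control gene with 0 counts was Smarcb1, a core subunit of the SWI/SNF chromatin remodelling complex and a tumour suppressor of the schwannoma and rhabdoid tumour spectrum. Its absence was examined further after its value was seen. Smarcb1 lies at chr20:13680716-13704931 of Rnor_6.0 within 16 consecutive annotated genes that all had 0 counts, from Spatc1l to Gstt4, on chr20:13164628-13784827. The run also holds Chchd10, Mmp11, Derl3 and Mif, and U2 small RNA genes, which libraries of polyadenylated RNA may miss. In the order of gene starts, Prmt2 came before the run with 15.7, 14.6 and 14.6 FPKM. Gstt1 came after it with 2.17, 2.34 and 2.54 FPKM. Prmt2, at chr20:13156241-13212606, reaches into the interval and spans Spatc1l, so the interval also holds part of an expressed gene. Over all chromosomes, 82 of 5211 runs of genes at 0 counts were at least as long, with small RNA genes counted in the same way. Mif, which nearly all cells express, is listed at 0, and as a gene with near copies its value is uncertain. S100b lies just beyond Prmt2, outside the run, at 12 counts. Of 25 SWI/SNF subunit genes, 21 were expressed, or 84.0%, beside 36.1% of all annotated genes. Smarca4, the ATPase, had 63.2, 66.5 and 62.2 FPKM, Smarcc1 had 59.9, 58.2 and 56.9 FPKM, and Phf10 and Brd7 had 55.0 ± 1.24 and 49.7 ± 2.41 FPKM. The only subunits at 0 counts were Smarcb1 and the neuronal subunit Actl6b. DNA was not measured, and why these genes had 0 counts was not tested.

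**Figure D5:**
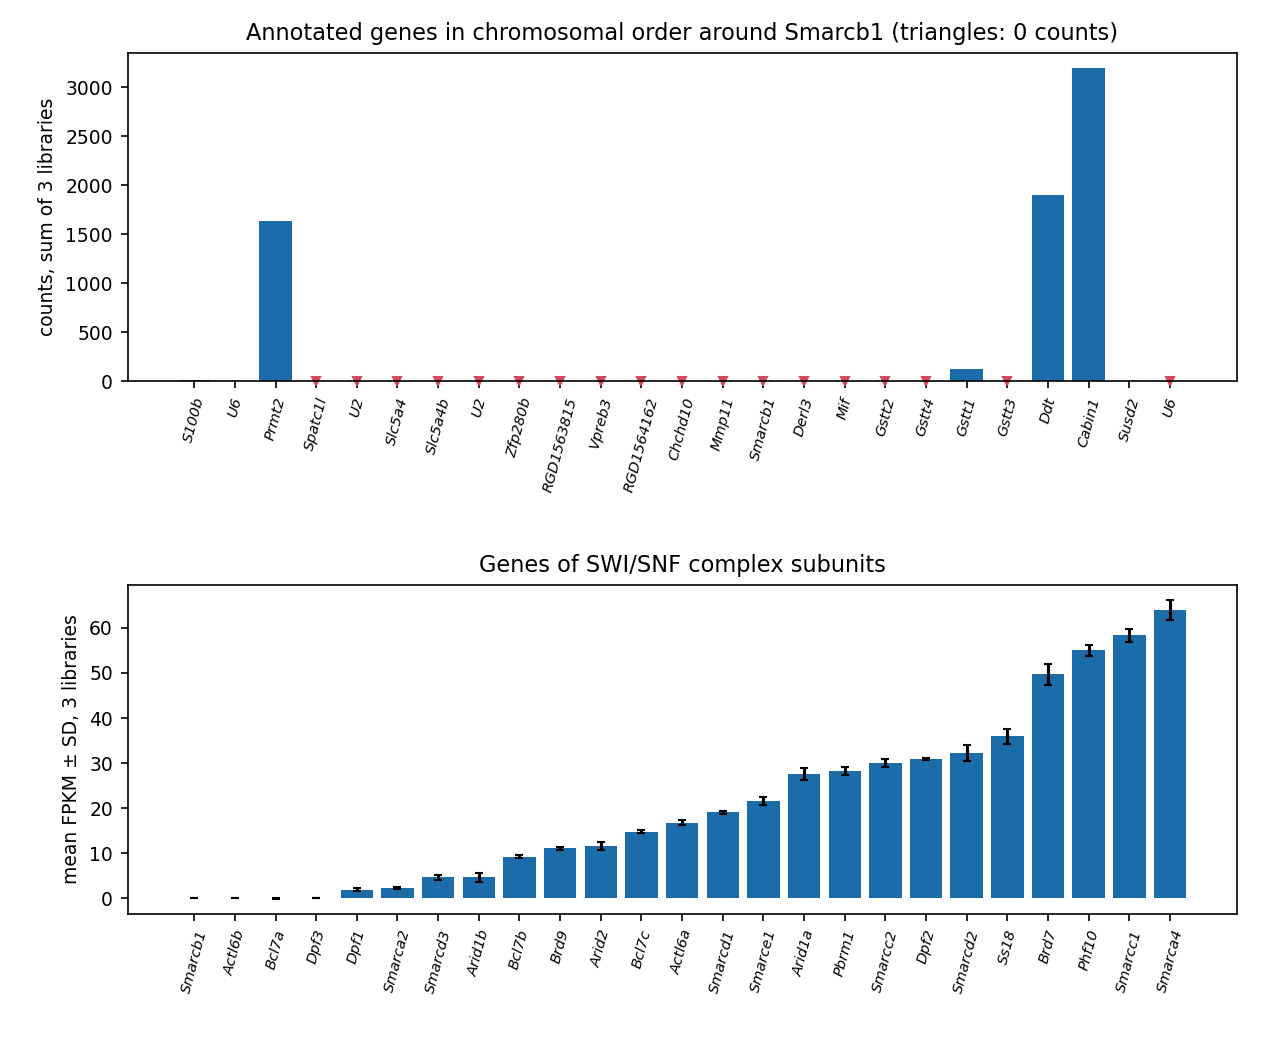
Upper panel: counts summed over the 3 untreated RSC96 libraries (vertical axis) for annotated genes in chromosomal order around Smarcb1, with triangles for genes at 0. Lower panel: mean FPKM with bars of 1 SD for genes of SWI/SNF subunits. Smarcb1 lies inside a run of 16 genes at 0, and 21 of the 25 subunit genes are above 1 FPKM.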

How the data were processed

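Untreated cells were sequenced in 3 libraries of polyadenylated RNA, prepared by a strand-specific method per the labels' protocols. The submitters' processing notes name HISAT2, StringTie 1.3.0, CASAVA and, as the build, Rnor_6.0. The sources used here do not name the counting tool, the annotation release or the strand setting. The authors deposited, for each library, whole-number counts per gene and FPKM values. Dividing counts by FPKM gave 1 length per gene to within 0.0565% over the libraries, so the 2 columns hold the same information. No library was a copy of another: the chi-square statistic between library pairs was 4.78 to 7.59 per gene, and 98.2% to 99.3% of genes at 10 FPKM in both were within 1.25-fold.

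Means and SDs of FPKM were computed with pandas 2.3.3 and TMM factors, 0.994 to 1.01, with edgeR 4.0.16. The call of expressed genes was tested on counts simulated with counting error only. The real libraries differed by more than that, and the matching of list members was not part of the simulation. There is 1 group and no comparison between groups, so no test was run. Of 1076 symbols in 42 lists, 1029 matched by symbol and 8 through RefSeq synonyms; 26 matched no row and 13 stood on several rows, and these were left out. A further list of 25 SWI/SNF subunits and the 31 pairs were added later. Members and lists were chosen with earlier results of these data known. The genes named are the 25 of highest FPKM, the 6 highest and the members at 0 counts of each list, members of small families and a fixed set of lineage genes, with others marked as named after their values were seen. Nes, in that set, matched no row, and values of some named genes are not given. Alternatives varied the threshold, the unit, the library scaling and the libraries used.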

Additional observations from a re-analysis of the deposited data

How the results depend on the processing

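The count of expressed genes, 11170, was 11876 at a threshold of 0.5 FPKM, 10368 at 2 FPKM, 10962 with 1 FPKM required in every library, 11431 at 1 CPM of TMM-scaled counts, 11881 at 1 TPM and 11188 with mitochondrial genes left out of the total. Leaving out 1 library each gave 11156 to 11174. List members expressed, 422 in all, ranged from 372 at 2 FPKM to 485 at 1 CPM. Of the 42 lists, 39 stayed within 1.5-fold at 2 FPKM, 40 at 1 CPM, 41 at 1 TPM and all 42 at the other settings. TPM values were 1.99 to 2.01 times the FPKM. The lists that moved further were skeletal muscle (0 members), Wnt, Notch and hedgehog ligands (5) and intermediate filaments (7) at 2 FPKM, endothelial (5) and macrophage (4) at 1 CPM, and endothelial (4) at 1 TPM. Levels under 1 FPKM rest on few counts. No paired analysis was possible because there is 1 group and no test.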

Other observations

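Few well-expressed genes differed between the 3 libraries. Apart from Mt-atp6, the genes of 10 FPKM or more with the largest coefficients of variation were Tpd52, with 43.2, 43.5 and 18.7 FPKM, Lmo4, with 15.95, 14.8 and 7.05 FPKM, and Ctdspl2, with 18.03, 10.2 and 10.01 FPKM. Tpd52 and Lmo4 were low in library 3, and Ctdspl2 was high in library 1. These genes were named after their values were seen.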
